A study of Homo sapiens with 6 samples.

Results

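The GABPA peak lists of edited, clonal A-375 lines were compared, A-375 being an established human melanoma cell line. In the line labelled A375_B1X2KO_TERT_rescue, exon 2 of B1, the GABP subunit encoded by GABPB1, was knocked out, and TERT, which encodes telomerase reverse transcriptase, was then knocked in. The line labelled A375_ROSA26_KO_No1 is the control, edited at the safe-harbour locus ROSA26, and its labels name no edit of B1 and no TERT. Edited lines were made with Cas9 and guide plasmids and grown as clones after cell sorting, so the B1 exon 2 loss, the added TERT and the choice of clone cannot be told apart. The same GABPA antibody was used throughout. The series holds 6 samples, namely a GABPA ChIP and an input for each of these lines and for parental cells. The ROSA26 list held 3857 peaks and the B1 knockout list 1660, together 5517 of the 8541 peaks in the series. With 1 library per condition there is no replicate check, no test was made, and intervals given below cover counting error only.

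GABP is an ETS family transcription factor in which GABPA contacts DNA at a core of CCGGAAG, while its B partner, the product of GABPB1 or of GABPB2, carries the activation domain. Some B subunit isoforms join a pair of GABPA-GABPB units into a tetramer that can occupy neighbouring ETS sites. GABP is known for binding at the starts of genes of mitochondria, ribosomes and other housekeeping functions, and in melanoma for binding the mutated TERT promoter. The comparison asks which GABPA sites of the control clone are also found after loss of exon 2 of B1.

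Promoter sequences are shown first, as examples of strong peaks of each outcome whose summit lay well inside the window. Each is the RefSeq window (GRCh38.p14) of 250 bases before and 50 after a gene start, 5′ to 3′ along the gene, with ETS core matches (CCGGAAG, or its reverse complement CTTCCGG) in capitals. The first pair had the strongest peaks found in both lists among such windows, and the third is the strongest of them with 2 matches. Peaks at ISY1, TSSC4 and WDR24 were stronger than that at KCTD10. Those at ISY1 and TSSC4 had their summit near or beyond an end of the window, and WDR24 had no window.
ALKBH3 (chr11:43880581-43880880, plus strand): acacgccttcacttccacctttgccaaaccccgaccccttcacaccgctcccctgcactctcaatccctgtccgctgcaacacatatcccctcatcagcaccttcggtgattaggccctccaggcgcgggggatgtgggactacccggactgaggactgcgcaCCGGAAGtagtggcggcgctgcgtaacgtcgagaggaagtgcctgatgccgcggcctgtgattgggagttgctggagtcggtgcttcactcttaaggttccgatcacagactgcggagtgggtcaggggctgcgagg
KCTD10 (chr12:109477251-109477550, minus strand): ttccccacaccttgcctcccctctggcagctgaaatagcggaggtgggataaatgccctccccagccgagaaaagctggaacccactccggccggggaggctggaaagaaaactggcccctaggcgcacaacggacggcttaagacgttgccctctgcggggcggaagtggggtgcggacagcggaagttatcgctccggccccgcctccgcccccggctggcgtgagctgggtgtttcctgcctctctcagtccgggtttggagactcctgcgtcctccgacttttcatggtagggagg
GOLGA3 (chr12:132829032-132829331, minus strand): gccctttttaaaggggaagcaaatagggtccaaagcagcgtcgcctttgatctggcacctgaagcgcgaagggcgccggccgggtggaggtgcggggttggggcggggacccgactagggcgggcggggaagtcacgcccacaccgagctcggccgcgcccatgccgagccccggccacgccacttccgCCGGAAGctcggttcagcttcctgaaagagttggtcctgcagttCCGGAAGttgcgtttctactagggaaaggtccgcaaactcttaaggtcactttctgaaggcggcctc
Among windows chosen the same way, the next held the strongest ROSA26 peaks with no B1 knockout peak, NSUN5 being the strongest of them with 2 or more matches.
CHCHD5 (chr2:112584197-112584496, plus strand): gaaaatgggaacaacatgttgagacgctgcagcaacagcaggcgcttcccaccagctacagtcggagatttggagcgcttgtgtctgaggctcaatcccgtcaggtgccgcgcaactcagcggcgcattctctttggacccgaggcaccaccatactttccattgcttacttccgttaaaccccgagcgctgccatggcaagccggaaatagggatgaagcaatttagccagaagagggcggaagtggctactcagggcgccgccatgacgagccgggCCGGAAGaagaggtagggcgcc
SYMPK (chr19:45863098-45863397, minus strand): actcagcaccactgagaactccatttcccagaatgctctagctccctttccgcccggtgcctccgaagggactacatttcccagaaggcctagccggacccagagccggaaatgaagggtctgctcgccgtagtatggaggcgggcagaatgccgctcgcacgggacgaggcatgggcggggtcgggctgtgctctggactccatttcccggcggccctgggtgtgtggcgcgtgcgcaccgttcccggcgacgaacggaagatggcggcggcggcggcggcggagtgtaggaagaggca
ASXL1 (chr20:32358081-32358380, plus strand): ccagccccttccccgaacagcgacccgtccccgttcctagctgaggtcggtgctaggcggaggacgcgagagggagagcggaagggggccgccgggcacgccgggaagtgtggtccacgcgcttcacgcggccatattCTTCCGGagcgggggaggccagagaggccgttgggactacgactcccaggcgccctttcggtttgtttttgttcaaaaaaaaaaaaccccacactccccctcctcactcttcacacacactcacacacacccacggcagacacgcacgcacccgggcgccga
NSUN5 (chr7:73308777-73309076, minus strand): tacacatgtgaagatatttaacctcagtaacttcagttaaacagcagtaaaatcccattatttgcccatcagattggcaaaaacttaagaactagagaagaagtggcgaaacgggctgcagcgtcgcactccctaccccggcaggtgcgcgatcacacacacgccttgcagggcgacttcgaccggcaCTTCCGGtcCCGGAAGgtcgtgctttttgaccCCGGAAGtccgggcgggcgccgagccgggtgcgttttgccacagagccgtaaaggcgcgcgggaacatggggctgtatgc
The last window lies between ATP5PF and GABPA itself, and its peak was found in both lists.
ATP5PF (chr21:25735005-25735304, minus strand): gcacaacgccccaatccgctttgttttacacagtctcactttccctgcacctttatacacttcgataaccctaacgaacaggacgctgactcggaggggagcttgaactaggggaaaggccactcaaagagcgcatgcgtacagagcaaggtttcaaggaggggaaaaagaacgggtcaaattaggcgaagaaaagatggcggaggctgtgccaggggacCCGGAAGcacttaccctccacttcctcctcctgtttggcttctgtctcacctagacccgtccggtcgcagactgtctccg
In ALKBH3 the match began at position 164 of the window, with the ROSA26 summit at position 170 and the B1 knockout summit at 185. In GOLGA3 the matches began at 190 and 234 and the summits lay at 219 and 262. In NSUN5 there were 3 matches, at 189, 198 and 221, around a ROSA26 summit at 214. The match lay farther from the ROSA26 summit in CHCHD5 (279 against 245) and ASXL1 (139 against 90). KCTD10 and SYMPK held no exact match, so these letters were not present at every strong peak, kept or missing.

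Of the 3857 ROSA26 peaks, 1636 were overlapped by at least 1 bp by a B1 knockout peak (42.4%, exact 95% interval 40.9 to 44.0). These are called kept, and the other 2221 missing, which means not listed and not that the site was unbound. In the other direction, 1636 of 1660 B1 knockout peaks had a ROSA26 partner (98.6%, 97.9 to 99.1), and 24 were new (1.45%). Each kept peak had a single partner. The B1 knockout list was therefore nearly a subset of the ROSA26 list. Solving the deposited fold and −log10 p for reads gave a genome-wide background of 14.2 reads per position for ROSA26 and 9.86 for the B1 knockout, 69.3% of it. Deeper libraries and longer fragments raise this value. The part of this difference in the shorter list was not tested. When the ROSA26 list was shortened to its top 1660 peaks by −log10 p, 85.9% were kept (84.1 to 87.5).

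Whether a peak was kept followed its fold enrichment, the summit signal over local background as deposited by the authors. Kept peaks had a median ROSA26 fold of 10.5 (quartiles 8.12 and 13.4) and missing peaks 4.06 (3.14 and 5.46). Their summits held a median of 222 and 82 reads in the ROSA26 library. In the weakest of 10 equal bins of ROSA26 fold 0.775% were kept (0.16 to 2.25), in the fifth 20.7% (16.8 to 25.1), in the sixth 43.1% (38.1 to 48.2) and in the strongest 98.96% (97.4 to 99.7). The change from rarely to nearly always kept lay between folds of about 5 and 11, as the bounds of these bins show (4.96 for the lower bound of the fifth bin and 10.9 for the upper bound of the eighth). Of the missing peaks, 81.0% (79.3 to 82.6) had a fold below 6.02, about the median of the ROSA26 list. Above the median peak fold 423 of 1928 were missing (21.9%, 20.1 to 23.9).

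**Figure D1:**
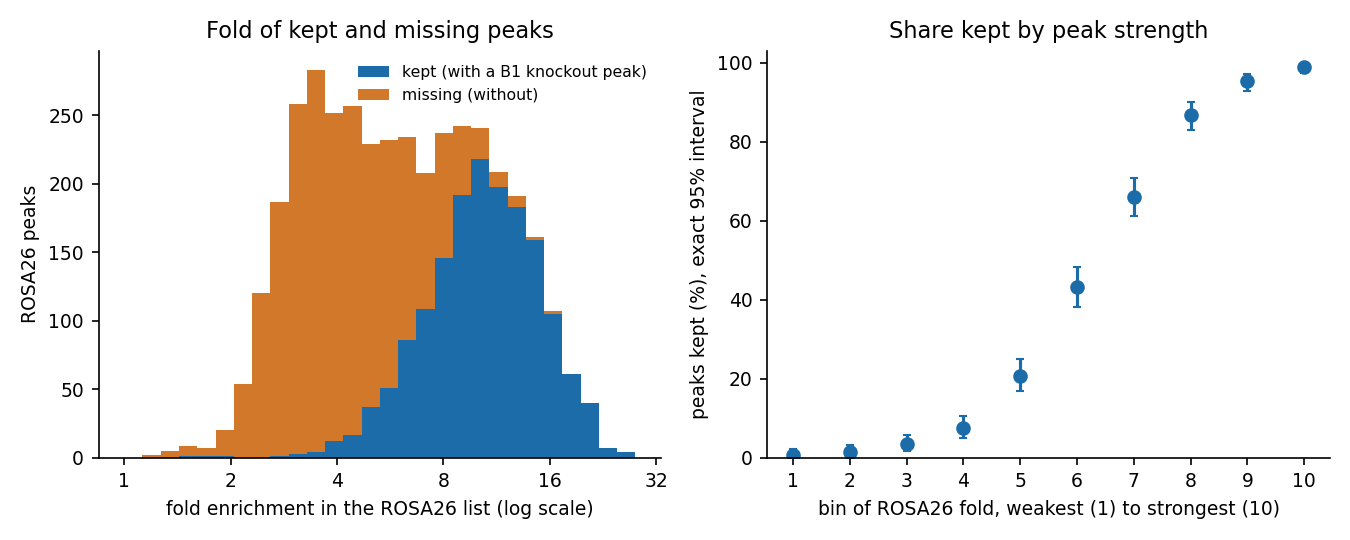
Left, number of ROSA26 peaks by fold enrichment (log scale), kept in blue and missing in orange, stacked. Right, share kept in 10 equal bins of ROSA26 fold with exact 95% intervals, rising from 0.775% in the weakest to 98.96% in the strongest bin.

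The strongest ROSA26 peaks were all kept. ISY1, a splicing factor gene, had the highest ROSA26 fold, 26.4, with a B1 knockout fold of 13.8 (chromosome 3, 129160735 to 129161729). ALKBH3, which encodes an enzyme that repairs alkylated DNA, followed with 25.97 and 22.96 (chromosome 11, 43880318 to 43881232). TSSC4 had 25.5 and 16.9, and WDR24, part of the GATOR2 complex of amino acid sensing, 24.9 and 14.9. The peak between KCTD10 and UBE3B, an E3 ubiquitin ligase gene, had 24.1 and 20.5. AURKAIP1 and MRPS31, both of the mitochondrial ribosome, had 23.1 and 22.7 in ROSA26 and 15.9 and 16.8 in the B1 knockout list. GOLGA3, a Golgi protein gene, had 22.4 and 17.96, and RPS7, of the small ribosomal subunit, 22.3 and 14.1. The remaining peak of the 10, eighth by fold, lay inside KRT10, near the non-coding KRT10-AS1, with folds of 22.6 and 6.90, the lowest B1 knockout value of these 10. Folds of separate lists have separate backgrounds, so no direction is read from them. In each of these 10 pairs the summits were within 50 bp of each other, the farthest being 43 bp at GOLGA3.

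The strongest missing peaks reached folds that elsewhere were nearly always kept. The first was at the start of CHCHD5, a mitochondrial intermembrane space protein gene, with a fold of 16.2 and 246 reads at its summit (chromosome 2, 112584010 to 112584869). CACNG8, which encodes an auxiliary subunit of AMPA receptors, had a peak 887 bp from one end of its span, with 15.96 and 249 reads (chromosome 19, 53961696 to 53962394). SYMPK, a scaffold of mRNA 3′ end processing, had a peak 168 bp from its start with a fold of 13.7 (chromosome 19, 45862548 to 45863682). ASXL1, a Polycomb-related chromatin regulator gene, had a peak 161 bp from its start with 13.04 (chromosome 20, 32357834 to 32358501). A peak inside ITPA, which encodes an enzyme that clears inosine triphosphate, had 13.2. The start of GBA2, a glucosylceramidase gene, shared with RGP1, carried 12.4, and the start of ZNF528 carried 11.9. One peak with a fold of 12.98 was outside genes (chromosome 11, 39161455 to 39162271). Summits of the 15 strongest missing peaks held 186 to 263 reads in the ROSA26 library, against a background of 14.2.

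Of these 15 peaks, 6 lay on chromosome 7. That chromosome held 195 of the 3857 ROSA26 peaks, and 99 of the 1928 above the median peak fold. They were at the start of the non-coding CZ1P-ASNS (fold 14.4, 97971967 to 97972710), at CCZ1B (13.1, 6826002 to 6826663) and ZDHHC4, a palmitoyltransferase gene (12.9, 6576936 to 6577792). The others were at CCZ1 (12.3, 5898337 to 5898979), NSUN5, an rRNA methyltransferase gene (12.01, 73308500 to 73309231), and TRIM4 (11.9, 99919268 to 99919961). CCZ1 and CCZ1B, which act in endosome maturation, are near-identical copies, and NSUN5 has close pseudogene copies, so reads there could be split between copies and these values are uncertain.

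The genes of GABP differed in outcome. The peak between GABPA and ATP5PF, a subunit gene of ATP synthase, was kept, with folds of 14.3 and 12.5 and summits 22 bp apart (ROSA26 peak on chromosome 21, 25734614 to 25735999). GABPB1, the targeted gene, had a ROSA26 peak with a fold of 10.3, its summit inside the gene 301 bp from the start, and no B1 knockout peak (chromosome 15, 50354504 to 50355279). GABPB2, which encodes the alternative B subunit, had a ROSA26 fold of 3.78, in a range where few peaks were kept, and no B1 knockout peak (chromosome 1, 151070470 to 151071303). TERT had a peak in neither list. Peak lists do not show an edit, so these values do not check the knockout or the knock-in.

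Kept peaks lay at starts of protein-coding genes more often than missing peaks. A summit within 1 kb of such a start, or of either end of the gene's span where no start was listed, was found for 91.3% of kept (89.8 to 92.6) and 71.7% of missing peaks (69.8 to 73.6). Missing peaks were more often inside coding genes away from a start (9.23% against 1.96%) or outside genes (11.98% against 2.93%). Peaks at the start of a non-coding gene made up 6.39% of missing and 3.73% of kept peaks. Much of this went with strength, since peaks inside coding genes and outside genes had median ROSA26 folds of 3.41 and 3.42 against 6.77 at coding gene starts. Above the median peak fold the shares at coding gene starts were 92.5% of kept (91.0 to 93.8) and 84.9% of missing peaks (81.1 to 88.1), a smaller difference whose intervals do not overlap.

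**Figure D2:**
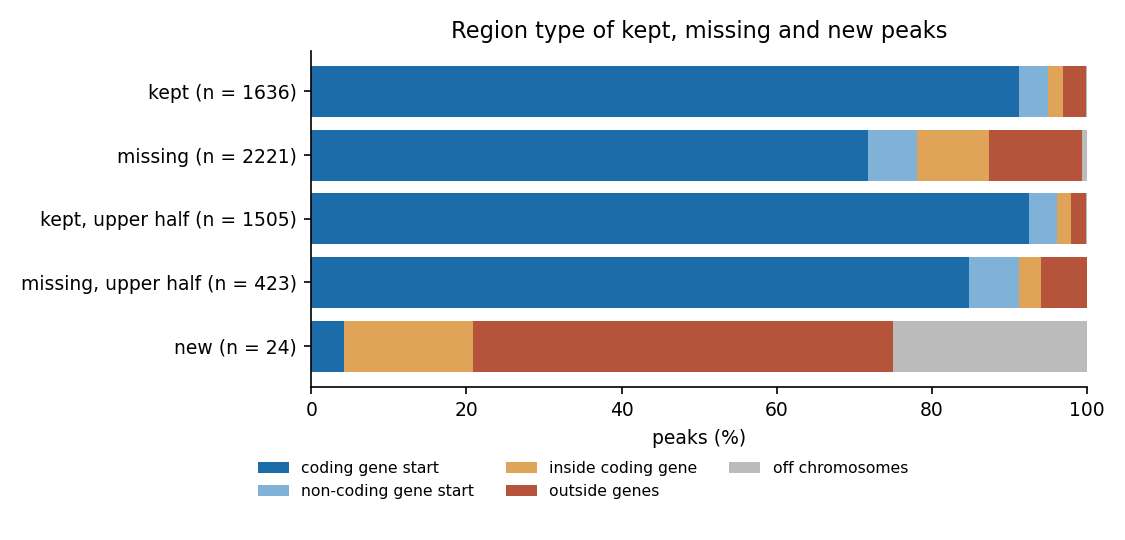
Share of peaks by the position of the summit, for 1636 kept, 2221 missing and 24 new peaks, and for kept and missing peaks above the median peak fold (1505 and 423). Coding gene starts took 91.3% of kept, 71.7% of missing and 4.17% of new peaks.

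Within bins of equal strength the region types differed less and in no constant order. In the strongest of 4 bins of ROSA26 fold (9.93 and above), 96.2% of peaks at coding gene starts were kept (94.7 to 97.4), 31 of 34 at non-coding gene starts, 12 of 14 inside coding genes and 15 of 18 outside genes (83.3%, 58.6 to 96.4). In the third bin 62.0% at coding gene starts (58.6 to 65.3) and 15 of 37 outside genes (40.5%, 24.8 to 57.9) were kept. Peaks inside coding genes were kept in 15 of 25 in that bin (60%, 38.7 to 78.9), about as at coding gene starts. In the second bin the order was the other way, with 14 of 77 outside genes (18.2%, 10.3 to 28.6) and 13.03% at coding gene starts (10.7 to 15.6). In the weakest bin 4 of 182 outside genes (2.20%), 3 of 59 at non-coding gene starts (5.08%) and 2 of 575 at coding gene starts (0.348%) were kept. Between coding gene starts and peaks outside genes, the intervals were apart in the third bin and overlapped in the others. At coding gene starts, peaks near 2 or more genes were kept in 56.9% (53.0 to 60.7) and those near 1 gene in 46.1% (44.1 to 48.1). Above the median peak fold these were 85.2% (81.4 to 88.4) and 77.7% (75.3 to 79.9), and at or below it 5.17% (2.70 to 8.86) and 8.07% (6.53 to 9.84), in the other order. Peaks near 2 or more genes were also stronger, with a median ROSA26 fold of 8.003 against 6.52, and 10.6 against 9.83 above the median peak fold. Summits of kept peaks lay a median of 37 bp upstream of the nearest start, those of missing peaks 41 bp upstream. Within 200 bp of the start were 90.8% of the kept and 81.2% of the missing summits, and 86.5% of the missing summits above the median peak fold.

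Missing and kept promoters were compared for the ETS core. The summit of 2282 ROSA26 peaks lay inside a RefSeq promoter window of 300 bases, of which 1207 were kept (52.9%, 50.8 to 55.0). At least 1 CCGGAAG on either strand was present in 70.8% of the windows of kept and 49.4% of those of missing peaks, against 12.8% of all 22132 windows of coding genes. The share kept rose with the number of matches, from 39.4% with none (36.1 to 42.6) to 55.6% with 1 (52.5 to 58.7), 76.5% with 2 (71.3 to 81.2) and 90.3% with 3 or more (80.1 to 96.4). Median ROSA26 folds rose in the same order, from 5.65 to 7.81, 11.3 and 13.7.

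At equal peak strength the shares kept overlapped whatever the number of matches. Over 4 equal bins of the fold of these 2282 peaks, the second bin kept 31.8% with no match (26.1 to 37.9), 31.1% with 1 (25.6 to 37.0) and 35.6% with 2 or more (21.9 to 51.2). The third kept 79.8% (73.4 to 85.2), 79.2% (74.1 to 83.8) and 80.7% (70.9 to 88.3). The strongest kept 99.1%, 98.8% and 98.0%, with the lowest lower bound at 94.98, and the weakest kept 5 of 335, 4 of 210 and 0 of 26. The intervals overlap in every bin, and they are wide where few windows had 2 or more matches, so a moderate difference was not detectable. Among windows with exactly 2 matches, those starting up to 50 bases apart were kept in 75.6% (68.5 to 81.8) and those farther apart in 77.8% (69.5 to 84.7).

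**Figure D3:**
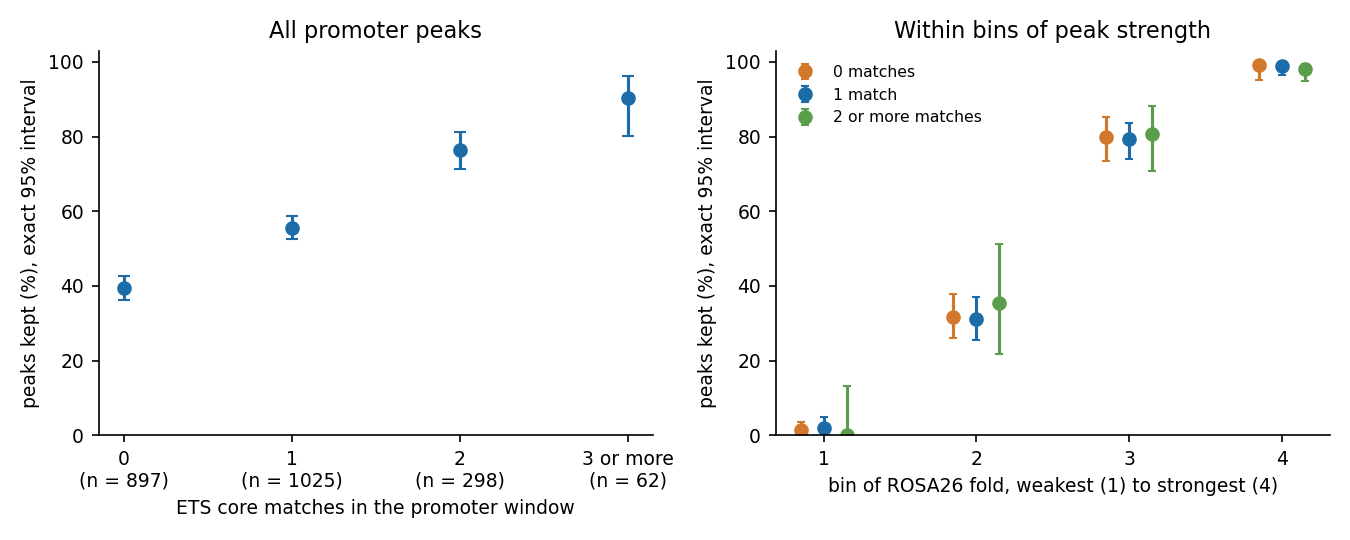
Share of promoter peaks kept, with exact 95% intervals, by the number of CCGGAAG matches in the window. Left, all 2282 peaks, from 39.4% with none to 90.3% with 3 or more. Right, the same in 4 bins of ROSA26 fold, where the shares for 0, 1 and 2 or more matches lie side by side.

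Summits of kept peaks stayed in place. The distance between paired summits had a median of 18 bp (quartiles 8 and 34), 88.5% of the 1636 pairs were within 50 bp, 33 were over 100 bp and 6 over 200 bp apart. The shift had no common direction. At gene starts, 657 B1 knockout summits lay downstream of their ROSA26 partner along the gene, 620 upstream and 20 on the same base, with a median of 1 bp downstream. The control pair, ROSA26 and parental, was measured at 1628 of the same peaks and had a median distance of 15 bp, with 93.6% within 50 bp and 11 over 100 bp. The distances were thus slightly longer in the comparison with the B1 knockout, whose library also had the lowest background of these libraries (9.86 reads against 14.2 in ROSA26 and 15.4 in parental). The part of read depth in that was not tested. In the strongest bin of ROSA26 fold the median was 16 bp and none of 920 pairs was over 200 bp apart. Where a kept window held an ETS core, the ROSA26 summit lay a median of 16 bp and the B1 knockout summit 17.5 bp from the centre of the nearest match (854 windows). The B1 knockout summit was the nearer in 386 windows and the farther in 441.

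A few peaks of middling strength had displaced summits. The largest shift above the median peak fold was 449 bp, at a peak shared by the starts of ALG3, an N-glycan mannosyltransferase gene, and EEF1AKMT4 (chromosome 3, 184248617 to 184249947). Its folds were 6.14 and 5.86 and its ROSA26 width 1331 bp. At OSGEPL1, a mitochondrial tRNA modification gene, the shift was 367 bp (chromosome 2, 189762500 to 189763477). TBC1D2, HUS1, a DNA damage checkpoint gene, and SH2B1, a signalling adaptor gene, followed with 236, 219 and 217 bp. These 5 peaks had ROSA26 folds of 6.14 to 9.23, all outside the strongest bin.

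Kept peaks were narrower in the B1 knockout list. The median width of the pairs was 767 bp in ROSA26 and 515 bp in the B1 knockout, and the median ratio was 0.677 (quartiles 0.588 and 0.751). Of the 1636 pairs, 1633 were narrower and 3 wider. In 1610 pairs (98.4%) the B1 knockout peak lay wholly inside its ROSA26 partner. Over all 1636 pairs a median of 119 bp was lost at the left and 120 bp at the right edge, so both sides narrowed alike. Parental peaks were also narrower than ROSA26 peaks at the same sites, but less so, with a median ratio of 0.867 (0.815 and 0.913) and 85.5% inside. The ratio was 0.627 in the third and 0.706 in the strongest bin of ROSA26 fold. A peak's width is the stretch above the caller's threshold and moves with depth and with enrichment, and their parts were not tested.

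**Figure D4:**
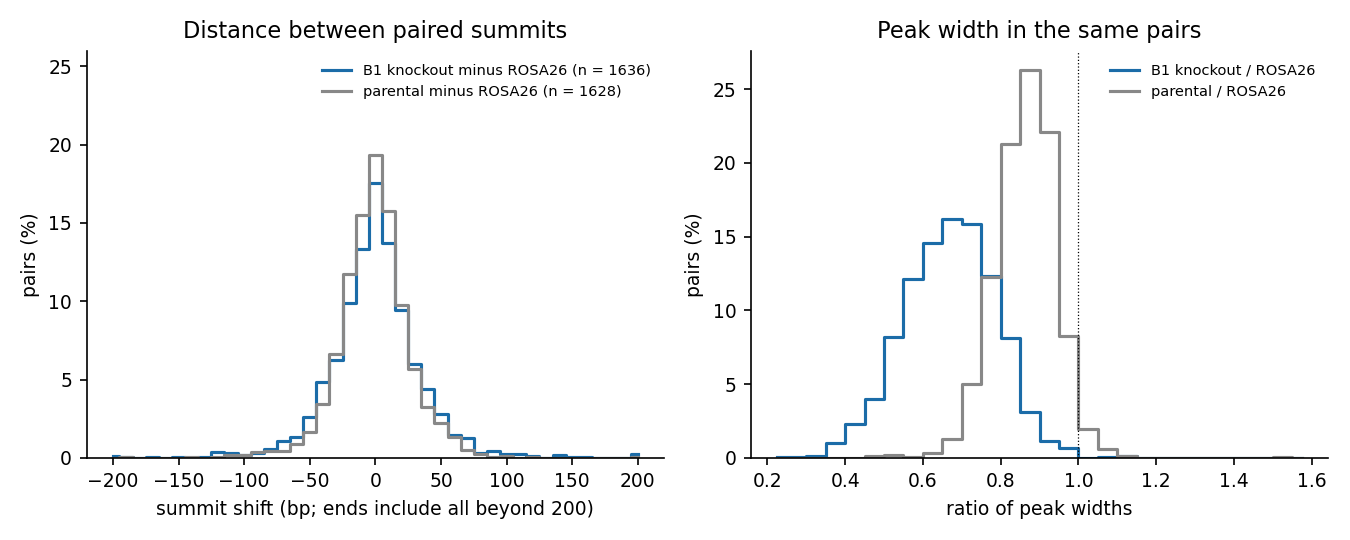
Left, signed distance between paired summits in bp, for B1 knockout minus ROSA26 (blue, 1636 pairs) and parental minus ROSA26 (grey, 1628 pairs), both centred on 0. Right, ratio of peak widths in the same pairs, with medians of 0.677 and 0.867 and a dotted line at equal width.

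The extremes of width named a few genes. U2AF2, a splicing factor gene, had the largest loss above the median peak fold, from 2321 to 506 bp (ratio 0.218, chromosome 19, 55653554 to 55655874). A peak inside PFN1, the gene of the actin-binding protein profilin, went from 1643 to 414 bp. MZF1, ATP13A1 and ELOC, a subunit gene of elongin and of cullin ligases, had ratios of 0.319, 0.342 and 0.369. At the other end, the peak at the non-coding MINCR was 667 bp wide in ROSA26 and 713 bp in the B1 knockout (ratio 1.07), the only wider one above the median peak fold. WDR83OS, DPH7, GFM1 (a mitochondrial translation elongation factor gene) and TRMT10C (of mitochondrial RNase P) had ratios of 0.995, 0.993, 0.981 and 0.98.

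New peaks were few, weak and mostly away from genes. The 24 peaks had a median B1 knockout fold of 2.74 and 36.5 reads at the summit, against 5.86 and 83 for the B1 knockout peaks with a ROSA26 partner. Of them 13 lay outside genes (54.2%, 32.8 to 74.4), 4 inside coding genes, 1 at a coding gene start and 6 off chromosomes 1 to 22 and X. The 1 at a gene start was at STK35, a kinase gene, with the highest fold of the 18 on these chromosomes, 3.91 (chromosome 20, 2102053 to 2102393). Those inside genes were in HS3ST4, a heparan sulfate sulfotransferase gene (3.30, chromosome 16, 25807008 to 25807341), CAMTA1 (2.75), and the receptor phosphatase genes PTPRD (2.64) and PTPRT (2.56). The other 8 among the 10 strongest on these chromosomes had folds of 2.79 to 3.48, and all were outside genes. With both lists limited to a −log10 q of at least 10, 2 new peaks were left.

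Counted by gene, 3717 of 19974 coding genes (18.6%) had a ROSA26 summit within 1 kb. Of these 1869 also had a B1 knockout summit there (50.3%, 48.7 to 51.9), and 1848 did not. Above the median ROSA26 fold of these genes (7.09) the share was 87.2%, and at or below it 13.3%. Beside these, 2 genes had a B1 knockout summit only, STK35 and PFN1, the last with overlapping peaks in both lists and its ROSA26 summit beyond 1 kb. Gene families below are set beside 50.3%, with their count above the median fold beside 87.2%. Families were fixed by symbol pattern or by name, so a member need not act in the process its family is named for. TIMMDC1, CDC123 and CDK9 below, for example, are known for other functions.

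Genes of mitochondrial protein synthesis and import had stronger peaks than all marked genes and were kept more often, a difference that was not tested. Their median ROSA26 folds were 8.64 and 9.40, against 7.09. Of 77 mitochondrial ribosomal protein genes 41 were marked in ROSA26 and 29 kept (70.7%, 54.5 to 83.9), with 26 of 27 above the median fold. MRPL21 (ROSA26 fold 19.8, B1 knockout fold 9.89) was kept beside MRPS31, and MRPS33 (7.80) and MRPL52 (6.16) were missing. Of 21 marked genes listed under mitochondrial import 16 were kept (76.2%, 52.8 to 91.8), with 13 of 14 above the median fold. TIMMDC1 (17.9 and 9.77) and TIMM8B (16.1 and 9.97) were among the kept. TIMM10, a chaperone of the intermembrane space, and PMPCB, a subunit of the presequence peptidase, were missing with 8.09 and 6.22. Of 15 marked SLC25 carrier genes 7 were kept, and those 7 were all of the carriers above the median fold. SLC25A11 (13.4 and 4.57) and SLC25A32 (12.3 and 5.003) were kept, and SLC25A14 (5.32) and SLC25A15 (4.58) missing.

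Respiratory chain genes had members on both sides. Of 19 marked complex I genes 10 were kept (52.6%, 28.9 to 75.6), with 7 of 9 above the median fold, NDUFS3 (22.2 and 18.5) and NDUFB3 (15.99 and 8.78) being the strongest. The assembly factor genes NDUFAF8 (7.61) and NDUFAF1 (7.15) were missing. Of 12 marked cytochrome c oxidase genes 8 were kept, 6 of 8 above the median fold, with COX14 (12.7 and 3.62) and COX10 (11.5 and 5.03) kept and COX16 (8.41) and COX7C (7.83) missing. Of 9 marked ATP synthase genes 7 were kept, and all 6 above the median fold, including ATP5MK (14.6 and 13.1) next to ATP5PF, and ATP5F1B (3.92) and ATP5MJ (3.35) were missing.

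Genes of translation were mostly kept above the median fold, with exceptions on both sides. At or below it, 5 of 25 cytosolic ribosomal protein, 5 of 15 synthetase and 0 of 11 initiation factor genes were kept. Of 84 cytosolic ribosomal protein genes 60 were marked in ROSA26 and 36 kept (60.0%, 46.5 to 72.4), with 31 of 35 above the median fold. RPS18, which shares its peak with VPS52, had 18.2 and 19.3, while RPL15 (10.8) and RPS19 (9.54) were missing. Of 28 marked initiation factor genes 16 were kept, all of them among the 17 above the median fold, EIF2A (18.01 and 8.32) and EIF4E2 (16.1 and 14.5) among them, and EIF3D (7.57) and EIF5B (6.82) were missing. Of 23 marked aminoacyl-tRNA synthetase genes 13 were kept, and all 8 above the median fold. CARS1 (19.4 and 10.1) and HARS1, which shares its peak with HARS2 (16.6 and 9.57), were kept, and QARS1 (4.91) was missing.

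RNA synthesis and processing genes and zinc finger genes had both kept and missing members. Of 42 marked spliceosome genes 27 were kept (64.3%, 48.0 to 78.4), 24 of 26 above the median fold, with SF3A3 (17.6 and 14.4) and LSM5 (15.1 and 9.06) kept and SF3B3 (8.06) and SF3B1 (7.53) missing. Of 31 marked DEAD and DEAH helicase genes 22 were kept (71.0%, 52.0 to 85.8), with all 19 above the median fold. DDX21 (18.9 and 5.005) and DDX55 (18.2 and 18.7) were kept, and DHX34 (5.32) and DDX5 (5.19) were missing. Of 16 marked Mediator genes 10 were kept, which were all 10 above the median fold, MED23 (20.3 and 11.3) and MED8 (17.1 and 10.8) leading, and MED14 (6.62) and MED11 (4.14) were missing. Of 8 marked Integrator genes 7 were kept, and all 6 above the median fold, INTS1 (21.03 and 10.2) and INTS11 (17.3 and 6.72) leading, and INTS9 (5.49) was missing. Of 17 marked RNA polymerase subunit genes 9 were kept, and all 7 above the median fold, POLR3D (15.6 and 7.14) and POLR1B (15.1 and 6.96) leading, and POLR2G (6.81) and POLR3C (6.09) were missing. Of 509 ZNF genes 240 were marked and 112 kept (46.7%, 40.2 to 53.2), with 99 of 118 above the median fold. ZNF408 (20.9 and 11.3) and ZNF384 (20.5 and 10.5) were kept, and ZNF528 and ZNF497 (10.8) missing.

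DNA replication and repair genes were kept least often among families with at least 8 marked members, a difference that was not tested. Of 45 replication genes 20 were marked and 5 kept (25%, 8.66 to 49.1), an interval below 50.3%. Above the median fold 5 of 9 were kept (55.6%, 21.2 to 86.3). FEN1, the flap endonuclease (16.3 and 8.12), and ORC3 of the origin recognition complex (15.9 and 5.13) were kept, the last with the same folds as the synthetase gene RARS2, whose start the peak also lies near. ORC4 (9.73) and POLA1, the catalytic subunit of DNA polymerase alpha (7.95), were missing. Of 31 marked repair genes 9 were kept (29.03%, 14.2 to 48.0). Above the median fold 6 of 9 were kept (66.7%, 29.9 to 92.5), an interval that holds the 87.2% of all marked genes. FANCM (15.2 and 10.4) and XRCC4 (14.6 and 7.55) were kept, and XRCC5 (8.94) and ERCC5 (8.05) missing. Repair genes also had a low median ROSA26 fold, 4.86 against 7.09 for all marked genes. Replication genes, at 6.59, were nearer to it. Of 20 marked genes listed under cell cycle 11 were kept, all 11 of those above the median fold. Not all members act in the cell cycle. CDC123 (18.3 and 11.3) and CDK9 (14.1 and 8.18) were kept, and CDK7 (6.61) and CDC20 (6.25) were missing.

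Protein turnover, trafficking and telomere genes complete the families. Of 29 marked proteasome genes 19 were kept, 17 of 19 above the median fold, PSMF1 (20.4 and 15.02) and PSMG3 (18.1 and 11.7) leading, and PSMD13 (8.15) and PSMD12 (7.44) were missing. Of 15 marked USP deubiquitinase genes 5 were kept (33.3%, 11.8 to 61.6), 4 of 7 above the median fold (57.1%), USP30 (19.9 and 23.4) and USP39 (14.2 and 6.23) leading, and USP5 (8.98) and USP11 (8.36) were missing. Of 10 marked autophagy genes 6 were kept, which were all 6 above the median fold, led by ATG16L1 (12.5 and 8.97) and PIK3C3 (12.1 and 5.05), with RB1CC1 (6.68) and ATG12 (5.46) missing. Of 18 marked VPS genes 10 and of 12 marked nucleoporin genes 9 were kept, with 9 of 10 and 5 of 5 above the median fold, VPS13B (18.7) and NUP107 (17.5) leading, with VPS33B (7.83) and NUP88 (4.15) missing. Of 18 telomerase and telomere genes 11 were marked and 6 kept, with all 5 above the median fold. RTEL1, a telomere helicase gene, had 15.2 and 20.4, SHQ1, an assembly factor gene of the telomerase RNA complex, 12.98 and 5.95, and TINF2 of shelterin (7.06) and TEN1 (4.23) were missing. Of 26 other ETS factor genes 4 were marked and 3 kept, with the 1 above the median fold among them, ETV3 (7.97 and 6.41) and ELK4 (3.84 and 3.66) leading, with ELF2 (3.15) missing. None of 9 melanocyte lineage genes and none of 10 markers of other skin and blood cells had a summit near a start, so these lists do not check the cell type.

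**Figure D5:**
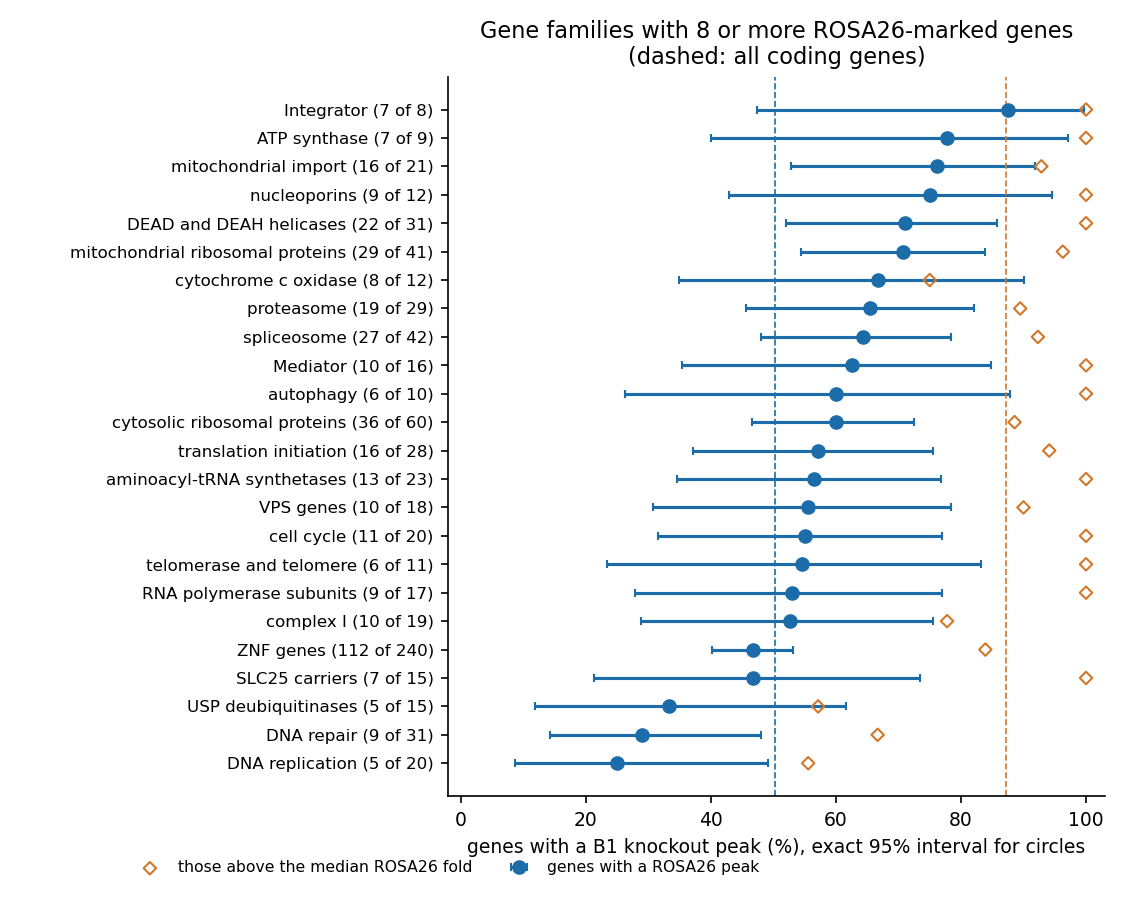
Share of ROSA26-marked genes with a B1 knockout peak, by family, for families with 8 or more marked genes. Circles with exact 95% intervals show all marked genes, diamonds those above the median ROSA26 fold, and dashed lines the shares over all coding genes, 50.3% and 87.2%.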

How the data were processed

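GABPA peak lists of 2 ChIP libraries were compared, with the parental list as a control pair for summits and widths only; no file of an input sample was used. Reads were processed with Bowtie2, SAMtools and MACS2 on hg38, per the submitters' processing notes. Their versions and thresholds: not given in the sources used here. Lists were called per library. The deposited columns used were the fold (a ratio), −log10 p, −log10 q and the summit position, and the deposited score is 10 times −log10 q with decimals dropped. Coordinates are 1-based.

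Summit reads and background were solved from the authors' fold and −log10 p with MACS2's formulas, for peaks with a −log10 p under 290. The solver and the overlap step were tested on simulated data. In the real lists 3709 of 3857 ROSA26 and 1657 of 1660 B1 knockout peaks were solved. The lowest value among kept B1 knockout peaks was 3 reads, below the background of 9.86, so single solved values can be wrong. Gene starts came from RefSeq promoter windows (GRCh38.p14) for 15812 of 19974 coding genes. For the rest, chromosome 8 included, both span ends were used. Motifs were searched on both strands. Intervals are Clopper-Pearson 95% intervals on counts of peaks, windows or genes. They cover counting error only, since each condition has 1 library. Reads carried no molecular identifiers. Bins are equal in number. Analyses used Python 3.11.15, SciPy 1.17.1 and pandas 2.3.3.

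Kept peaks named are the 10 with the highest ROSA26 fold, missing peaks the 15 highest, new peaks the 10 highest, the 5 largest summit shifts and 5 widest and narrowest ratios above the median peak fold, and the leading kept and missing genes of 28 families. Some items that this rule names are not reported here. Members and lists were chosen with earlier results of these data known. The printed windows (summit at positions 51 to 250, not on chromosome 8) were chosen after values were seen.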

Additional observations from a re-analysis of the deposited data

How the results depend on the processing

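No paired analysis was possible because each condition has 1 library. Of 48 alternative values, 32 stayed within the interval of the main value and 16 moved outside it. For the count of new peaks the limit was 1.5 times the main value. Changes of direction were not checked. Shortening the ROSA26 list to the 1660 peaks of the other list raised the peaks kept to 85.9%, the genes kept to 87.6%, promoters kept to 85.2% with no ETS core and 93.2% with 2 or more, missing peaks at coding gene starts to 85.5% and B1 knockout peaks without a partner to 234, since fewer ROSA26 peaks were left to match. A −log10 q of at least 10 in both lists gave 2 new peaks, 77.6% of missing peaks at coding gene starts and a width ratio of 0.687. Requiring summits within 100 bp gave 57 new peaks. Missing peaks lay at coding gene starts in 68.4% with a distance of 500 bp and 74.7% with 2 kb. With CCGGAA as the motif, 33.5% of promoters with none and 72.7% with 2 or more were kept, and with CCGGAAGT 43.6% and 88.5%. The nearest summit and the summed width of partners gave the main values, because each kept peak had a single partner, and an overlap of at least 50% of the shorter peak gave the main counts. List length and the caller's limit bound what a missing peak shows.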

Other observations

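The share of peaks kept varied between chromosomes, a pattern chosen after its values were seen. Above the median peak fold it ran from 64.2% on chromosome 14 (34 of 53, 49.8 to 76.9) to 89.2% on chromosome 20 (58 of 65, 79.1 to 95.6). On chromosome 7, 44 of 53 peaks in the strongest of 4 bins were kept (83.0%, 70.2 to 91.9), against 876 of 909 on the other chromosomes (96.4%, 94.9 to 97.5). In the third bin they were 22 of 46 (47.8%, 32.9 to 63.1) and 61.2% (57.9 to 64.3), in the second 0 of 37 (upper bound 9.49%) and 12.9% (10.8 to 15.2), and in the weakest 0 of 59 (upper bound 6.06%) and 1.23% (0.616 to 2.19). The intervals were apart in the second and the strongest bin and overlapped in the others. Above the median peak fold chromosome 7 kept 66.7% (56.5 to 75.8), and chromosomes 6 and 14 kept less, 65.4% and 64.2%. All 99 chromosome 7 peaks above the median peak fold had a parental partner, and 140 of all 195 chromosome 7 peaks did (71.8%, 64.9 to 78.0). Over the whole ROSA26 list 2963 of 3857 peaks had one. For other chromosomes above the median peak fold this was not counted. Along chromosome 7 the share kept was 6 of 36 between 60 and 80 Mb (16.7%, 6.37 to 32.8) and 11 of 21 between 40 and 60 Mb (52.4%, 29.8 to 74.3), where the median ROSA26 folds were 3.98 and 9.19. The copy number of the clones was not measured here.

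Other letters in the promoter windows, also chosen after values were seen, were compared between kept and missing peaks above the median peak fold (1130 and 261 windows). GGGCGG, bound by SP and KLF factors, was present in 67.7% of kept (64.9 to 70.4) and 70.1% of missing windows (64.2 to 75.6), against 56.3% of all windows of coding genes. CCAAT, bound by NFY, was present in 35.1% (32.3 to 38.0) and 39.8% (33.9 to 46.1), against 34.6%. AAGATGGCG, bound by YY1, was present in 5.66% (4.39 to 7.18) and 6.51% (3.84 to 10.2), against 2.42%. TGACGTCA, bound by CREB and ATF factors, was present in 4.78% (3.61 to 6.19) and 3.07% (1.33 to 5.95), against 2.26%. CACGTG, the E-box, was present in 8.76% (7.18 to 10.6) and 11.9% (8.21 to 16.4), against 8.34%. The NRF1 core, the motif with the largest relative difference of these 6, was present in 2.12% (1.37 to 3.14) and 4.60% (2.40 to 7.89). All 6 pairs of intervals overlap. The ETS core itself was present in 72.3% of these kept windows (69.6 to 74.9) and 63.2% of the missing ones (57.1 to 69.1). Its intervals were apart, while within the bins of fold given above the shares kept overlapped. The median GC content was 63.0% in kept and 64.3% in missing windows.

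Some weak ROSA26 peaks were kept. The 5 weakest on chromosomes 1 to 22 and X included 1 near RNA45SN2, a ribosomal RNA gene, on chromosome 21 (fold 1.73 with 553 reads at the summit, and 1.47 in the B1 knockout list), and 1 near ETV4 (2.90 and 3.72). The weakest, on chromosome 17 from 26603694 to 26604290, had 1.58 with 698 reads and 1.34 with 641 reads. At this peak and the one near RNA45SN2, so many reads with so low a fold mean a high local background. In ROSA26 it was far above the genome-wide 14.2 reads. Whether these 2 are GABPA sites was not tested.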
